A study of Mus musculus with 77 samples.

Results

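The genes described here are those of the Wnt pathway that act between the cell surface and the nucleus as ligands, receptors or feedback regulators. They are the genes whose symbol is Wnt followed by a digit, together with Fzd1 to Fzd10, Lrp5, Lrp6, Lgr4 to Lgr6, Rspo1 to Rspo4, Dkk1 to Dkk4, Sfrp1 to Sfrp5, Wif1, Notum, Rnf43, Znrf3, Axin1, Axin2, Nkd1, Nkd2, Tcf7, Tcf7l1, Tcf7l2, Lef1, Ascl2, Porcn and Wls. Of the 46078 genes in the count table, 61 met this rule. They comprised 19 Wnt ligands, 2 genes of ligand secretion, 12 Frizzled and Lrp receptors, 9 genes of the R-spondin arm, 10 secreted inhibitors, 4 intracellular feedback genes and 5 nuclear factors. The symbol Sfrp3 is not used in the table for any gene and was not counted.

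The cells were pancreatic duct cells of adult C57BL/6 mice grown as organoids, three-dimensional epithelial cultures that keep dividing in Matrigel. All cultures received medium with R-spondin 1, itself a strengthener of Wnt signals, together with EGF, FGF10, Noggin, gastrin and nicotinamide. A Tet-on lentiviral system of separate transgene and transactivator viruses, and not the native Neurog3 locus, expressed GFP only or Ngn3, either as WT Ngn3 or as 6S-A Ngn3, the latter a form in which serines that can be phosphorylated are replaced by alanine. Ngn3 (Neurogenin 3) is the basic helix-loop-helix transcription factor that starts endocrine differentiation in the pancreas, and both forms were fused to GFP through a self-cleaving peptide. At 2 days after induction the groups were GFP only, WT Ngn3 and 6S-A Ngn3, with 18 libraries each. At 8 days they were WT Ngn3 (5 libraries), 6S-A Ngn3 (6) and cells labelled no color from WT and from 6S-A organoids (6 each). The controls of the 2 days therefore differed in kind, GFP-expressing cells at 2 days and no-color cells at 8 days. Each library held a pool of 50 sorted cells, and pools were summed into 3 biological replicates per group. Of 148 pairs of pools from 1 replicate, 6 differed much less than the others, all at 2 days. Counts of pools and of libraries with reads may therefore include some material more than once. The organoids were of passage 2, except replicate 3 of all groups at 8 days, which was of passage 5.

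Kept libraries held between 1501002 and 9202142 reads on genes, and 1 WT Ngn3 library of 8 days with 849278 reads was left out. The shallowest replicates after summing were no-color (WT) replicate 3 with 2397470 reads and WT Ngn3 replicate 2 of 8 days with 3034680, so low values of 8 days are less precise. Neurog3, the gene of Ngn3, followed the labels, although transgene and endogenous transcripts cannot be told apart in these counts. It stood at 0.0406 to 0.077 counts per 1000000 reads (CPM) in GFP-only replicates, 95.5 to 220.0 in WT Ngn3 and 107 to 212 in 6S-A Ngn3 at 2 days. At 8 days the level was 0 to 0.947 CPM in no-color, 6.69 to 43.9 in WT Ngn3 and 9.5 to 14.3 in 6S-A Ngn3. All 13 ductal epithelial markers listed (keratins, Epcam, Cdh1, Sox9 and others) had reads in every group, and their summed level was 19860 to 21250 CPM in GFP only against 14000 to 14950 in WT Ngn3 and 12540 to 12950 in 6S-A Ngn3. The part of this shift in the changes described below was not tested. The libraries carried no molecular identifiers, so limits set from read counts cover counting error only.

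Wnt proteins are lipid-modified by Porcn, carried to the surface by Wls and bound by a Frizzled receptor with Lrp5 or Lrp6, which spares beta-catenin from destruction and lets it act with Tcf/Lef factors on target genes. R-spondins bind Lgr receptors and draw off Rnf43 and Znrf3, ubiquitin ligases that otherwise remove Frizzled from the membrane. Axin2, Nkd1, Notum, Rnf43, Znrf3 and Lgr5 are classical targets that feed back on the signal, and duct organoids depend on added R-spondin for growth.

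The promoter windows of 4 genes that the results turn on are printed because their transcripts moved with Ngn3, a factor that binds E boxes (CANNTG, which reads alike on both strands). They are taken from RefSeq (GRCm38.p6) and run from 250 bases before to 50 after the annotated start. The windows are those of Wnt9a (chr11:59306680-59306979, plus strand), Wnt3 (chr11:103773925-103774224, plus strand), Rspo4 (chr2:151842677-151842976, plus strand) and Wnt7a (chr6:91411304-91411603, minus strand), each written 5′ to 3′ on the strand of its gene, with E boxes in capitals.
Wnt9a: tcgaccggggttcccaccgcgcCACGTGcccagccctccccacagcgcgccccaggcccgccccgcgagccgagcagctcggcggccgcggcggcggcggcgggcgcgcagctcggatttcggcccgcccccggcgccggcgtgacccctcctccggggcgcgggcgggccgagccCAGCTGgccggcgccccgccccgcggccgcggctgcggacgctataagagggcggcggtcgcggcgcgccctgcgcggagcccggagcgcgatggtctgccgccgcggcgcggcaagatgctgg
Wnt3: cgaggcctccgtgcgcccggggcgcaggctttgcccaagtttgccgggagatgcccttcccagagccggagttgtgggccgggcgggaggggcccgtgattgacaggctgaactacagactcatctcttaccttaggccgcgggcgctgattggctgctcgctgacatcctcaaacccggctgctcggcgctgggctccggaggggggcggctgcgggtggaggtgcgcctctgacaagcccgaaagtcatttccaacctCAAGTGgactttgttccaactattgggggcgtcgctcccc
Rspo4: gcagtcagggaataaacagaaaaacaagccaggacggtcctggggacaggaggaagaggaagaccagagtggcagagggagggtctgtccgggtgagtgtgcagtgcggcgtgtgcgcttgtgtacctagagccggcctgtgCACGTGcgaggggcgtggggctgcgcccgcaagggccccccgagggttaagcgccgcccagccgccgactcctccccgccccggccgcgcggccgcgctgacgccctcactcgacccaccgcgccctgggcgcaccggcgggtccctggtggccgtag
Wnt7a: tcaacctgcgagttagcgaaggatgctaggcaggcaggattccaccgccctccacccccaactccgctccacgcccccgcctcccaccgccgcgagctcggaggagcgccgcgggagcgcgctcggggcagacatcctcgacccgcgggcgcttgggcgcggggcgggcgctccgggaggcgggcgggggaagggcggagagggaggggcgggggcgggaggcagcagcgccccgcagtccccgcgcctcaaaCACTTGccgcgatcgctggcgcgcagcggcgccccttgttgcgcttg
The Wnt9a window held 2 E boxes, which began 228 and 74 bases before the start. Rspo4 held 1, beginning 108 bases before the start, and those of Wnt3 and Wnt7a began 10 and 3 bases after it. An E box was present in 72.3% of all 32851 windows of this length, and in 32 of the 49 windows found for 40 of the 61 members, so its presence does not set these genes apart. The form with a GA centre (CAGATG, or CATCTG on the other strand) was in 17.2% of all windows and in 3 of the 49, none of them a window of a gene past the threshold in any comparison. The core of Tcf/Lef sites (CTTTGA, or TCAAAG on the other strand) was in 16% of all windows and in 5 of the 49. Neither motif overlapped the E boxes shown. Such matches are letters in a window and not measured binding.

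At 2 days, 12 of the 54 members tested differed between WT Ngn3 and GFP only (22.2%), where 11.8% of all 23844 genes tested did (edgeR quasi-likelihood test, p adjusted after Benjamini and Hochberg, threshold 0.05). A gene is said below to pass, or not to pass, in this fit of all replicates unless another is named. Of these, 8 were higher (against 6.56% of all genes) and 4 lower (5.23%). For 6S-A Ngn3 the count was 16 of 54 (29.6%), against 18.1% of all genes, with 10 higher (9.43%) and 6 lower (8.62%). Both comparisons share the GFP-only samples, so their values are set side by side and not counted as independent. The median log2 fold change over the members was 0.02 with WT Ngn3 and 0.01 with the 6S-A form, beside 0.01 and 0.02 over all genes tested, so the list did not move in 1 direction. At 8 days, 1 of 48 members tested differed from no-color cells for WT Ngn3 (2.08%, against 0.914% of all 19696 genes) and 3 of 48 for 6S-A Ngn3 (6.25%, against 1.71%). The single call with WT Ngn3 was higher (0.741% of all genes higher, 0.173% lower), and those of 6S-A Ngn3 were 2 higher (1.37% of all genes) and 1 lower (0.34%). Of the 61 members, 7 were detected in too few libraries to be tested at 2 days and 13 at 8 days. A gene can pass this filter through the group in which it is high, so these shares describe the tested members only. At 2 days Wnt9b, Wif1, Wnt3 and Rspo4 had reads in 0, 1, 3 and 4 of 18 GFP-only pools and reached the required 5 libraries through the Ngn3 groups, as Rspo4, Wif1, Nkd2 and Lgr6 did at 8 days with reads in 3, 1, 1 and 2 of the 12 no-color pools. Their calls, in any fit, carry that condition.

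**Figure D1:**
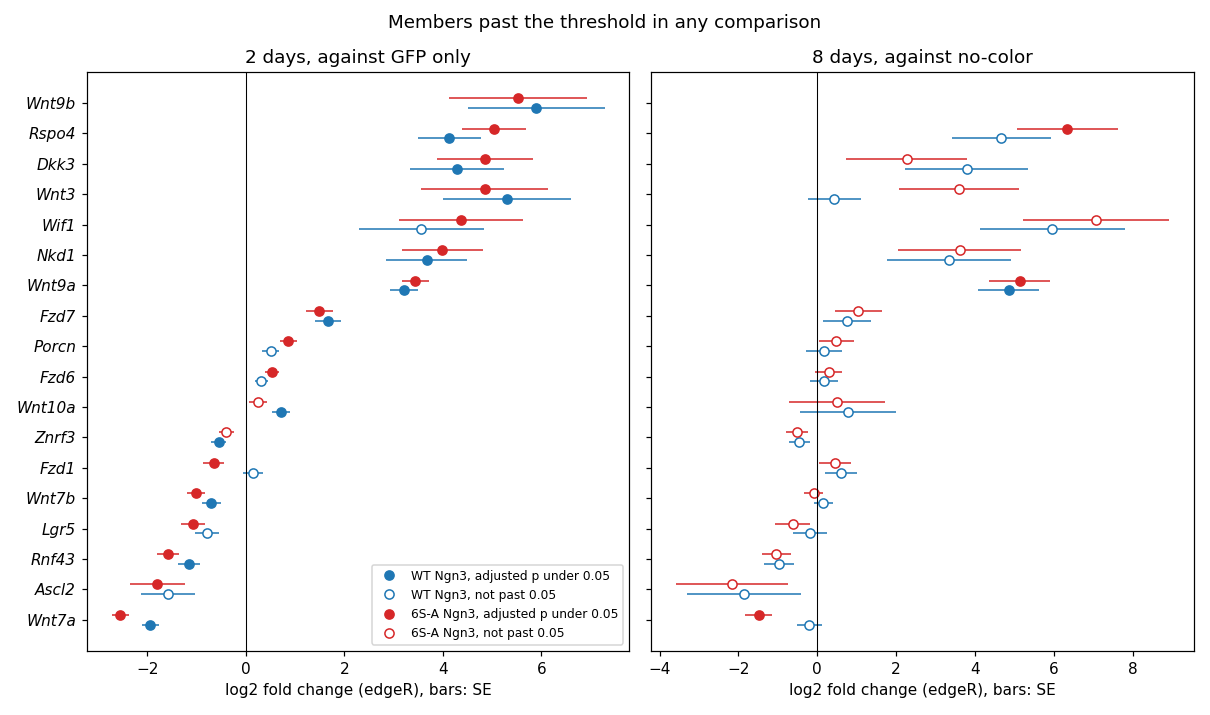
Log2 fold change (horizontal axis) with its standard error for the 18 members past the threshold in any comparison, WT Ngn3 in blue and 6S-A Ngn3 in red, at 2 days against GFP only (left) and at 8 days against no-color cells (right). Filled points passed an adjusted p of 0.05. At 8 days the filled points are Wnt9a for both forms and Rspo4 and Wnt7a for 6S-A Ngn3.

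The ligands expressed by the duct cells shifted at 2 days from Wnt7a and Wnt7b toward Wnt9a, in both Ngn3 groups. Of the 16 ligands tested, 4 rose and 2 fell with WT Ngn3, and 3 rose and 2 fell with 6S-A Ngn3 (37.5% and 31.2% called, beside 11.8% and 18.1% of all genes). Wnt9a (chr11:59306928-59333552, plus strand, GENCODE M21 on GRCm38), a ligand best known from joint and blood stem cell formation, stood at 17.5, 9.34 and 10.6 CPM in the GFP-only replicates. It stood at 138, 133 and 76.2 CPM with WT Ngn3 and at 157, 126 and 125 CPM with 6S-A Ngn3, so that no Ngn3 replicate overlapped a control. The log2 fold change was 3.21 (SE 0.28, adjusted p = 1.77e-05) for WT Ngn3 and 3.44 (SE 0.28, adjusted p = 6e-06) for 6S-A Ngn3. Among single pools the lowest Ngn3 value was 52.9 CPM and the highest GFP-only value 26.4 CPM (18 pools per group, scaled to total gene reads), so each Ngn3 pool lay above each control pool, although pools of 1 replicate are technical repeats.

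Wnt9a was also the member that passed the threshold for both Ngn3 forms at 8 days. The no-color replicates held 0.119, 0.527 and 0 CPM (from WT organoids) and 2.26, 4.65 and 0 CPM (from 6S-A organoids). WT Ngn3 replicates held 27.3, 28.1 and 14.4 CPM and those of 6S-A Ngn3 26.9, 26.3 and 31.7 CPM, again with no overlap. The log2 fold change was 4.86 (SE 0.77, adjusted p = 0.00415) for WT Ngn3 and 5.14 (SE 0.77, adjusted p = 0.00194) for 6S-A Ngn3. Set against its own no-color group alone, the change of 6S-A Ngn3 was 3.59 and did not pass (adjusted p = 0.0972), and that of WT Ngn3 passed under all alternatives run. Each day was normalized on its own, so levels of 2 and 8 days are only roughly comparable.

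Wnt7a (chr6:91363981-91411363, minus strand) and Wnt7b (chr15:85535437-85582473, minus strand), closely related ligands found in many epithelia, moved the other way. Wnt7a fell from 297, 188 and 191 CPM in GFP only to 66.3, 58.8 and 50.8 CPM with WT Ngn3 and to 37.3, 38.2 and 39.6 CPM with 6S-A Ngn3. The log2 fold changes were -1.94 (SE 0.17, adjusted p = 6.46e-06) and -2.55 (SE 0.18, adjusted p = 3.96e-07), and neither Ngn3 group overlapped the control. Wnt7b fell less, from 485, 281 and 318 CPM to 248, 238 and 179 with WT Ngn3 (-0.70, SE 0.19, adjusted p = 0.0255) and to 195, 178 and 164 with 6S-A Ngn3 (-1.01, SE 0.19, adjusted p = 0.00172). An exon of Wnt7b overlaps AU022754 on the other strand, and the counting is not stated to use strand, so its reads may include some of that gene.

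At 8 days the fall of Wnt7a passed the threshold for 6S-A Ngn3 and not for WT Ngn3. No-color replicates held 85.4, 145 and 104 CPM (WT organoids) and 127, 126 and 54.3 CPM (6S-A organoids). WT Ngn3 cells held 87.5, 107 and 84.2 CPM (-0.20, SE 0.32, adjusted p = 0.886), within the control range, and 6S-A Ngn3 cells 38.6, 48.7 and 27.3 CPM (-1.48, SE 0.34, adjusted p = 0.0334), below all 6 controls. The call for 6S-A Ngn3 was lost against its own no-color group (-1.42, adjusted p = 0.119), in passage 2 alone (-1.50, adjusted p = 0.0761) and in several fits without 1 replicate. The direct difference between 6S-A and WT Ngn3 at 8 days was -1.28 (SE 0.37), which did not pass over all genes (adjusted p = 1). Wnt7b lay at 98.3 to 170 CPM in no-color cells, 120 to 171 in WT Ngn3 and 114 to 134 in 6S-A Ngn3 cells at 8 days, overlapping groups with no call.

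**Figure D2:**
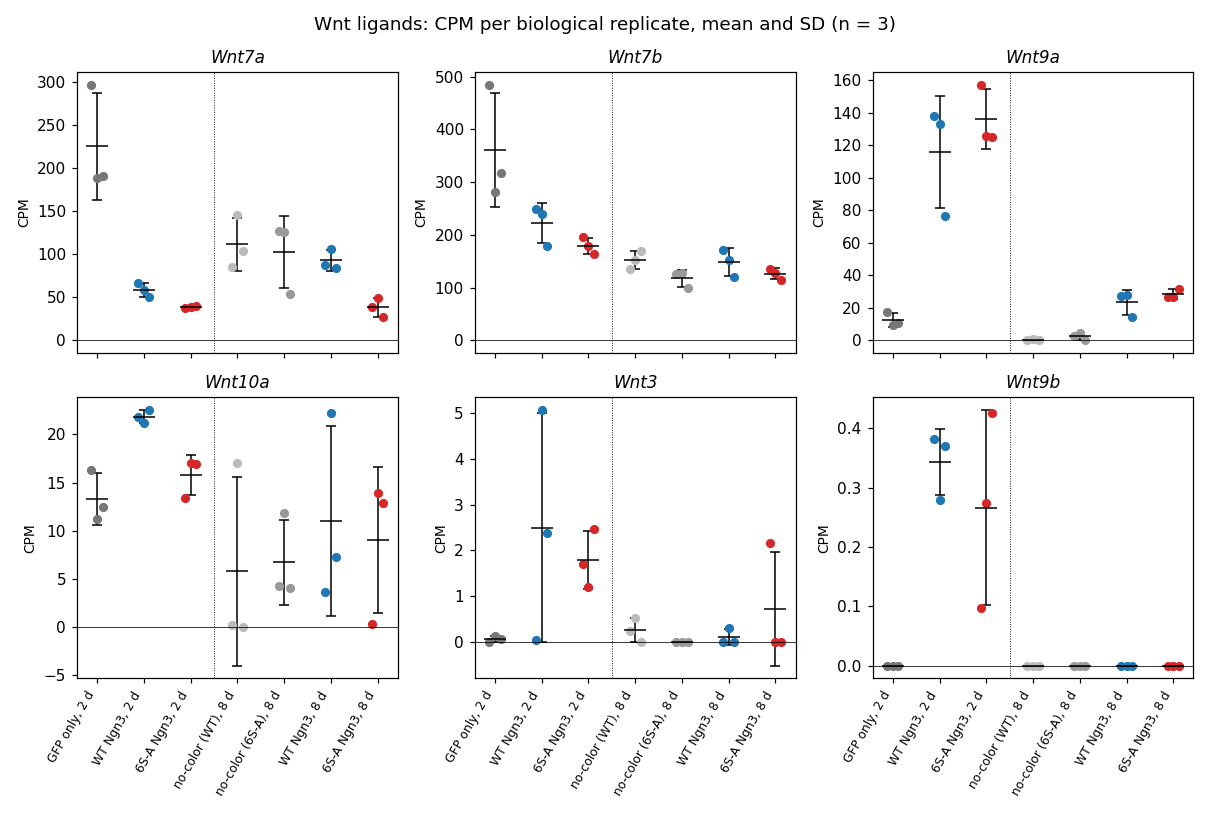
CPM (vertical axis) of 6 Wnt ligands in each biological replicate (points) of the 7 groups, with mean and SD (n = 3), and a dotted line between 2 and 8 days. Wnt7a and Wnt7b are highest in GFP only, Wnt9a is high in the Ngn3 groups of both days, and Wnt3 and Wnt9b are near 0 in GFP only.

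Divided by exon length, the ligand levels can be added up and compared with each other. In GFP-only replicates the 19 ligand genes summed to 212.6, 131.4 and 141.2 CPM per kb of exon, of which Wnt7a made up 42.6 to 45.2%, Wnt7b 43.7 to 46.5% and Wnt9a 2.14 to 2.48%. With WT Ngn3 Wnt9a made up 24.8 to 31.8% and Wnt7a 14.6 to 17.3%, and with 6S-A Ngn3 38.0 to 42.8% and 10.7 to 12.8%. Wnt9a thus stood above Wnt7a in all 6 Ngn3 replicates of 2 days and was the highest ligand in each 6S-A Ngn3 replicate, whereas Wnt7b stayed the highest in the WT Ngn3 replicates. The summed ligand level was 92.3 to 130.6 CPM per kb with WT Ngn3 and 97.6 to 110.3 with 6S-A Ngn3, below all GFP-only replicates. At 8 days Wnt9a made up at most 1.77% in no-color replicates, 6.96 to 11.01% with WT Ngn3 and 12.5 to 18.8% with 6S-A Ngn3. These shares were not tested, being ratios of the same counts.

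**Figure D3:**
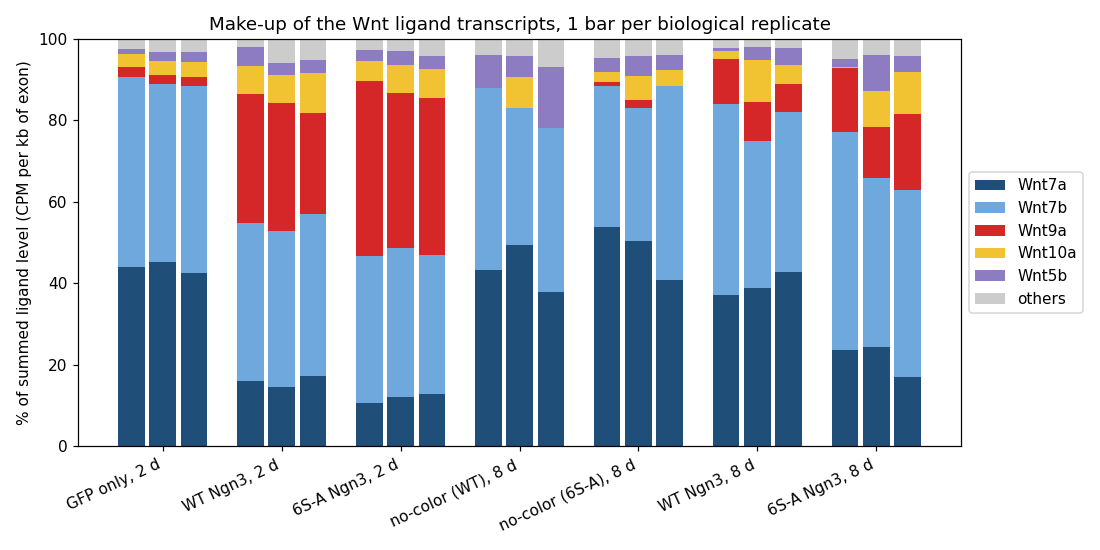
Share of the summed Wnt ligand level (CPM per kb of exon, vertical axis in percent) held by 5 ligands and by the other ligand genes together, with 1 bar for each biological replicate. Wnt9a takes 24.8 to 42.8% in the Ngn3 replicates of 2 days against at most 2.48% in GFP only, and Wnt7a 10.7 to 17.3% against 42.6 to 45.2%.

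Wnt3, a strong activator of the beta-catenin branch and a stem cell niche ligand of the intestine, lay at the edge of detection and rose at 2 days. GFP-only replicates held 0, 3 and 1 reads. WT Ngn3 replicates held 1, 91 and 45 reads (0.0424, 5.08 and 2.38 CPM) and 6S-A Ngn3 replicates 35, 22 and 52 (1.71, 1.21 and 2.47 CPM), so that 1 WT Ngn3 replicate lay within the control range. Both comparisons passed the threshold (adjusted p = 0.0199 and 0.0219). The ratio of pooled levels was 40.0 (95% exact counting interval 15.3 to 149) for WT Ngn3 and 32.2 (12.2 to 120.3) for 6S-A Ngn3, intervals that leave out the spread between replicates. Reads were found in 10 of 18 WT Ngn3 pools, with 56.9% of them from a single pool, and in 15 of 18 6S-A Ngn3 pools against 3 of 18 GFP-only pools. Neither form changed Wnt3 past the threshold at 8 days, where 37 reads came from 2 of 6 6S-A Ngn3 pools and 1 read from WT Ngn3.

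Wnt9b, which directs tubule formation in the kidney, lies beside Wnt3 on chromosome 11, with the starts of both genes 24.3 kb apart on opposite strands. It had 0 reads in all GFP-only replicates, 9, 5 and 7 reads with WT Ngn3 and 2, 5 and 9 reads with 6S-A Ngn3. Against a limit of 3 reads per GFP-only replicate its pooled level was at least 2.73-fold higher with WT Ngn3 and at least 2.10-fold higher with 6S-A Ngn3. These bounds do not hold for each replicate, since 6S-A Ngn3 replicate 1 lay under that limit itself. Reads were found in 7 of 18 WT Ngn3 pools and 5 of 18 6S-A Ngn3 pools, with 38.1% and 50% of them from a single pool. Wnt9b had no read in any pool of 8 days. Among the Wnt ligand genes 4 pairs have starts within 100 kb of each other. Wnt3a, 16.2 kb from Wnt9a, had 5 reads over all kept libraries, too few to be tested.

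Wnt10a, the other ligand past the threshold, stood at 16.3, 11.2 and 12.4 CPM in GFP only, 21.8, 21.2 and 22.5 with WT Ngn3 and 13.3, 17.1 and 16.9 with 6S-A Ngn3. It rose with WT Ngn3 by a log2 fold change of 0.71 (SE 0.19, adjusted p = 0.0233) and measured 0.25 (SE 0.19, adjusted p = 0.454) for 6S-A Ngn3. The difference between the 2 forms was -0.47 (SE 0.19, adjusted p = 0.813), so a difference in response was not shown. Wnt5b, a ligand of the beta-catenin-independent branch, lay at 7.36 to 15.9 CPM in all 2-day replicates without a call. The other 12 ligand genes had group means of at most 9.66 CPM, and none of those tested passed in the fit of all replicates.

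Of the 2 secretion genes, Wls, the carrier of Wnt proteins to the surface, gave no call at either day. Its level was 283 to 323 CPM in GFP only, 239 to 327 with WT Ngn3 and 280 to 313 with 6S-A Ngn3, and at 8 days 106 to 434 CPM over all groups. Porcn, the acyltransferase that lipid-modifies Wnt proteins, stood at 27, 26.6 and 30.4 CPM in GFP only and 49.1, 58.2 and 45.5 with 6S-A Ngn3, without overlap (log2 fold change 0.86, SE 0.18, adjusted p = 0.00319). With WT Ngn3 it held 50.2, 38.6 and 29.9 CPM (0.50, SE 0.18, adjusted p = 0.0901). In the first technical repeats alone the change with 6S-A Ngn3 was 0.03, which did not pass.

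Among the 12 receptors, Fzd7 rose with both forms, and 4 had an unadjusted p under 0.05 with WT Ngn3 and 7 with the 6S-A form, beside 5483 and 6880 of all 23844 genes. Fzd7, a Frizzled of intestinal and embryonic stem cells, stood at 7.59, 6.98 and 5.40 CPM in GFP only. It held 29.1, 22.1 and 12.4 CPM with WT Ngn3 and 18.7, 19 and 18.7 with 6S-A Ngn3, with no overlap (log2 fold changes 1.67, SE 0.27, adjusted p = 0.000829, and 1.49, SE 0.27, adjusted p = 0.00121). At 8 days it lay at 1.31 to 4.87 CPM in no-color cells, 4.17 to 7.32 with WT Ngn3 and 5.61 to 11.2 with 6S-A Ngn3, and neither difference passed.

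The receptors Fzd6 and Fzd1 passed for 6S-A Ngn3, in opposite directions and by small amounts. Fzd6, which acts mainly in planar cell polarity, stood at 68.2, 67 and 72.3 CPM in GFP only and 109, 97.8 and 91.9 with 6S-A Ngn3 (0.53, SE 0.14, adjusted p = 0.0139), and at 102, 84.7 and 71 with WT Ngn3 (0.31, SE 0.14, adjusted p = 0.176). Fzd1 stood at 76.4, 83.2 and 73.3 CPM in GFP only, 39.4, 57.4 and 51 with 6S-A Ngn3 (-0.66, SE 0.21, adjusted p = 0.0425) and 105, 96.2 and 55.5 with WT Ngn3 (0.14, SE 0.20, adjusted p = 0.782). An exon of Fzd6 overlaps a gene on the other strand.

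The co-receptors Lrp5 and Lrp6 gave no call at either day. Lrp6 lay at 92.6 to 125 CPM in GFP only, 84.4 to 114 with WT Ngn3 and 89.2 to 100 with 6S-A Ngn3, and Lrp5 at 37.9 to 52.7 CPM over the 2-day replicates. Fzd3 stood at 31.9 to 40.9 CPM in GFP only against 41.8 to 54.4 and 40.1 to 57.3 in the Ngn3 groups (adjusted p = 0.118 and 0.0718), and passed for 6S-A Ngn3 with DESeq2. Fzd5 stood at 19.5 to 35.6 CPM against 16.1 to 21.8 and 14.8 to 19.8 (adjusted p = 0.274 and 0.083). Fzd2 lay between 6.83 and 10.6 CPM at 2 days, in overlapping groups. The remaining 4 Frizzled genes had group means under 10 CPM and did not pass in the fit of all replicates.

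In the R-spondin arm an agonist rose and the ligase Rnf43 fell at 2 days with both forms, and the receptor Lgr5 passed as lower for 6S-A Ngn3. Rspo4 (chr2:151842927-151874668, plus strand), a secreted R-spondin known from nail growth, had 1, 5 and 6 reads in GFP-only replicates (0.0385 to 0.3 CPM). It stood at 2.67, 2.57 and 4.18 CPM with WT Ngn3 (log2 fold change 4.13, SE 0.64, adjusted p = 0.000645) and at 3.52, 3.51 and 10.6 with 6S-A Ngn3 (5.04, SE 0.65, adjusted p = 7.95e-05). All Ngn3 replicates lay above all controls, and reads were found in 16 and 17 of 18 Ngn3 pools against 4 of 18 GFP-only pools. Rspo1 and Rspo2 had 3 and 1 reads over all kept libraries and could not be tested. Rspo3 was under 1.5 CPM in each group mean.

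At 8 days Rspo4 was at 0, 0 and 3.88 CPM (7 reads in the shallow replicate 3) and 0, 0.172 and 0 CPM in the no-color groups. WT Ngn3 replicates held 9.49, 5.18 and 2.85 CPM (4.67, SE 1.26, adjusted p = 0.111) and those of 6S-A Ngn3 21.4, 4.15 and 31.2 CPM (6.35, SE 1.28, adjusted p = 0.0163), the latter above every control. Without no-color (WT) replicate 3 the change for 6S-A Ngn3 was 9.37 (adjusted p = 0.00204), and that for WT Ngn3 then passed too, as it did in passage 2 alone and without a filter on low counts. Against its own no-color group the change was 8.11 and did not pass (adjusted p = 0.0657). Per kb of exon the mean Rspo4 level of 6S-A Ngn3 cells at 8 days was 7.97 CPM and that of Wnt9a 8.50 CPM.

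Rnf43 (chr11:87662722-87735539, plus strand) stood at 51.4, 76.8 and 87.7 CPM in GFP only and fell to 25.1, 34.5 and 37.4 with WT Ngn3 (-1.16, SE 0.22, adjusted p = 0.00328). With 6S-A Ngn3 it fell to 18.2, 25.8 and 27.9 CPM (-1.58, SE 0.22, adjusted p = 0.000203), and neither group overlapped the control. Its relative Znrf3 stood at 122, 139 and 185 CPM in GFP only, 87.3, 108 and 108 with WT Ngn3 (-0.56, SE 0.15, adjusted p = 0.0263) and 104, 117 and 116 with 6S-A Ngn3 (-0.40, SE 0.15, adjusted p = 0.0854). At 8 days Rnf43 lay at 49.1 to 109 CPM in no-color cells, 32.2 to 46.5 with WT Ngn3 and 24.4 to 56.2 with 6S-A Ngn3, and neither passed (adjusted p = 0.331 and 0.216). With the replicate number as a block, which at 8 days in part marks passage, Rnf43 passed for 6S-A Ngn3 and Rspo4 for WT Ngn3.

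Lgr5 (chr10:115450311-115587780, minus strand), the R-spondin receptor that marks Wnt-driven stem cells and injured duct, stood at 31.8, 55.8 and 61.3 CPM in GFP only. It fell to 17, 29 and 24.8 CPM with 6S-A Ngn3 (-1.07, SE 0.24, adjusted p = 0.00695), below all controls, and measured 28.3, 32.7 and 25 CPM with WT Ngn3 (-0.79, SE 0.24, adjusted p = 0.0508). In the first technical repeats alone the change with 6S-A Ngn3 was -0.26 (adjusted p = 0.799). At 8 days Lgr5 ranged from 12.2 to 115 CPM in no-color cells, and both Ngn3 groups lay inside that range. Lgr4, which is the broader relative, held 42.3 to 77.2 CPM in GFP only against 35.1 to 53.2 and 37.4 to 45.8 in the Ngn3 groups (adjusted p = 0.304 and 0.111), and passed for 6S-A Ngn3 without a filter on low counts and without GFP-only replicate 1.

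**Figure D4:**
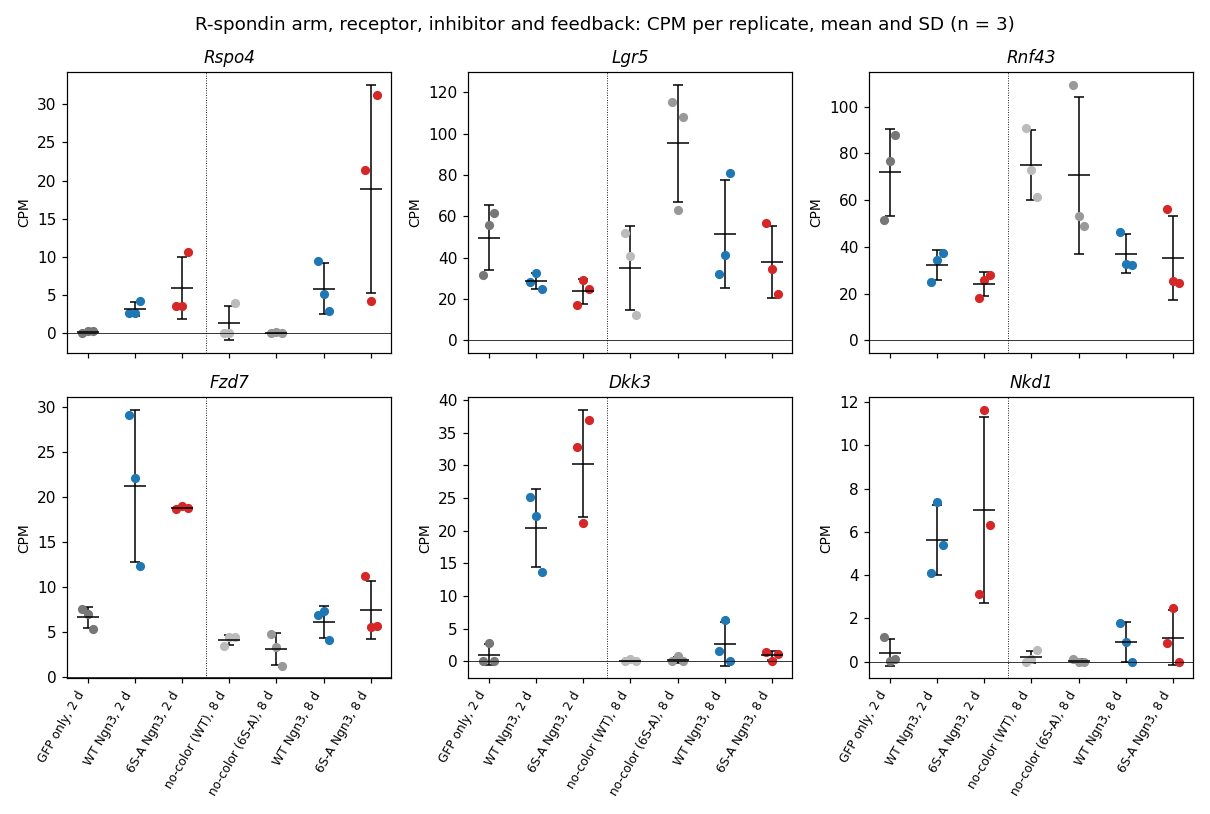
CPM (vertical axis) of Rspo4, Lgr5, Rnf43, Fzd7, Dkk3 and Nkd1 in each biological replicate (points) of the 7 groups, with mean and SD (n = 3). Rspo4, Fzd7, Dkk3 and Nkd1 are higher and Rnf43 lower in the Ngn3 groups of 2 days, and Rspo4 reaches 31.2 CPM in 6S-A Ngn3 cells at 8 days.

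Of the 10 secreted inhibitors, Dkk3 rose from near absence. Dkk3 (chr7:112116017-112159057, minus strand), a divergent Dickkopf protein whose effect on Wnt signals is unsettled, held 0.077, 2.88 and 0.1 CPM in GFP only. With WT Ngn3 it held 25.2, 22.3 and 13.7 CPM (4.28, SE 0.95, adjusted p = 0.0259) and with 6S-A Ngn3 32.8, 21.1 and 36.9 CPM (4.85, SE 0.97, adjusted p = 0.0109), with no overlap. Reads were found in every Ngn3 pool of 2 days and in 6 of 18 GFP-only pools. At 8 days the Ngn3 replicates held 0 to 6.40 CPM and the no-color replicates 0 to 0.775 CPM, without a call.

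Wif1, which binds Wnt proteins outside the cell, passed for 6S-A Ngn3 at 2 days on few reads. GFP only had 2 reads in all, WT Ngn3 25 and 6S-A Ngn3 43, in 6 of 18 pools of each Ngn3 group, with 15 and 25 of these reads from a single pool. The ratio of pooled levels was 25.4 (counting interval 6.62 to 217) for 6S-A Ngn3 (adjusted p = 0.0263) and 14.6 (3.64 to 127) for WT Ngn3 (adjusted p = 0.0949). At 8 days 6S-A Ngn3 held 175 reads, 90.9% of them in 1 of 6 pools, and the comparison did not pass with edgeR (adjusted p = 0.0758), but did with DESeq2, without a filter on low counts and without 6S-A Ngn3 replicate 3, none of whose pools had reads. The classical inhibitors were scarce, with Dkk1 at 2 reads over all kept libraries, Dkk2 and Dkk4 under 1 CPM in each group mean, and the highest group mean 7.14 CPM for Sfrp1 and 3.39 CPM for Notum.

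Among the intracellular feedback genes Nkd1 rose, and the Axin genes did not pass the threshold. Nkd1, a Dishevelled-binding antagonist, stood at 1.12, 0.0406 and 0.1 CPM in GFP only, 4.11, 7.36 and 5.40 with WT Ngn3 (3.67, SE 0.83, adjusted p = 0.0137) and 3.13, 11.6 and 6.31 with 6S-A Ngn3 (3.99, SE 0.83, adjusted p = 0.00579). No Ngn3 replicate overlapped a control. Axin2, the most used readout of beta-catenin activity, held 28.3, 42.5 and 76.1 CPM in GFP only, 28.8, 62.4 and 65.1 with WT Ngn3 (0.09, SE 0.46, adjusted p = 0.95) and 26.1, 40.5 and 61 with 6S-A Ngn3 (-0.20, SE 0.46, adjusted p = 0.847). The ranges of the groups overlapped, although 6S-A Ngn3 replicate 1 lay below every GFP-only and WT Ngn3 value. An exon of Axin2 overlaps a gene on the other strand. Axin1, the constitutive scaffold, held 39.2 to 50.3 CPM in GFP only, 41 to 45.9 with WT Ngn3 and 26.3 to 37.3 with 6S-A Ngn3 (-0.40, SE 0.15, adjusted p = 0.102). Among the feedback genes Nkd1 was thus higher and Rnf43 lower with both forms, Lgr5 passed as lower for 6S-A Ngn3 and Znrf3 for WT Ngn3, and no difference between the forms was shown for either. Lgr5 also passed for WT Ngn3 with DESeq2. With the replicate number as a block, Lgr5 passed and Nkd1 missed the threshold for WT Ngn3, and Axin1 and Znrf3 passed for 6S-A Ngn3. Notum, a secreted enzyme that inactivates Wnt proteins and is shown here after its values were seen, held 0.077 to 1.45 CPM in GFP only, 0.741 to 2.51 with WT Ngn3 and 2.52 to 3.89 with 6S-A Ngn3, the last above every control (1.82, SE 0.71, adjusted p = 0.103).

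Among the 5 nuclear factors, Ascl2 passed the threshold, with 6S-A Ngn3 at 2 days and, with DESeq2, also with WT Ngn3. Ascl2, a basic helix-loop-helix factor of Lgr5 stem cells, held 1.66, 2.56 and 2.75 CPM in GFP only, 0.391, 0.549 and 1.04 with 6S-A Ngn3 (-1.80, SE 0.56, adjusted p = 0.0393) and 1.36, 0.446 and 0.476 with WT Ngn3 (-1.58, SE 0.55, adjusted p = 0.0876), so all Ngn3 replicates lay below all controls. Tcf7l2, the main Tcf factor of gut and duct epithelium, held 49.1 to 74.4 CPM in GFP only and 47.9 to 54.5 CPM in the Ngn3 replicates (adjusted p = 0.251 and 0.143), and it passed for both forms without GFP-only replicate 1. Tcf7 lay at 15.9 to 26.8 CPM in the 2-day replicates without a call. At 8 days Tcf7l2 held 32.1 to 72 CPM in no-color cells and 21.4 to 24.7 with 6S-A Ngn3, below every control, and did not pass with edgeR (log2 fold change -1.001, SE 0.33, adjusted p = 0.161) but did with DESeq2.

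The 6S-A and WT forms were compared directly to ask whether loss of phosphorylation sites alters these genes. None of 54 members at 2 days and none of 48 at 8 days passed with edgeR, where 0.0126% (0.00839% higher and 0.00419% lower) and 0% of all genes did. DESeq2 also called 0 members at both days, beside 97 of all genes at 2 days and 0 at 8 days. With the replicate block 0 members passed at both days, beside 147 and 0 of all genes. In the edgeR fit without the block, 5 members at 2 days and 1 at 8 days had an unadjusted p under 0.05, beside 1380 of all 23844 genes and 415 of 19696. Those of 2 days were Wnt7a (-0.61, SE 0.17, adjusted p = 0.473), Fzd1 (-0.80, SE 0.21, adjusted p = 0.451), Wnt10a, Axin1 and Wnt6, all lower with 6S-A Ngn3, and the one of 8 days was again Wnt7a. The Wnt7a replicates of 6S-A Ngn3 lay below all those of WT Ngn3 at both days. The median difference over members was -0.09 at 2 days and -0.25 at 8 days, beside -0.001 and 0.023 over all genes tested. Whether these medians differ was not tested. For Wnt9a the difference was 0.23 (SE 0.25) at 2 days and 0.28 (SE 0.81) at 8 days. Without WT Ngn3 replicate 3 of 2 days Fzd1 passed, and without a filter on low counts Wnt7a did, beside 5 and 100 of all genes.

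Whether an effect changed between the 2 days was asked in 1 fit of both, in which day and type of control cannot be told apart. No member passed with edgeR for WT Ngn3 (0% of all 19589 genes) or for 6S-A Ngn3 (0.0102%, with 0.0051% higher and 0.0051% lower), and at an unadjusted p under 0.05 there were 6 and 7 members, beside 1024 and 1104 of all genes. DESeq2 called 2 and 0 members, beside 59 and 64 of all genes. Wnt7a, lower by 1.94 at 2 days and by 0.20 at 8 days with WT Ngn3, had a difference of 1.74 (SE 0.39, adjusted p = 0.266, edgeR). This difference passed with DESeq2, with the replicate block and without a filter on low counts, beside 59, 15 and 87 of all genes. For Wnt9a the difference was 1.65 (SE 0.81) for WT Ngn3 and 1.70 (SE 0.80) for 6S-A Ngn3, and neither passed.

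The rest of the pathway was followed in 3 lists. Of 33 signal transduction genes tested at 2 days, 7 rose and 1 fell with WT Ngn3, and 8 rose and 3 fell with 6S-A Ngn3 (24.2% and 33.3% called, beside 11.8% and 18.1% of all genes), with median log2 fold changes of 0.07 and 0.02. Apcdd1, an inhibitor that binds Wnt and Lrp proteins, rose from 0.1 to 0.203 CPM to 7.83 to 8.52 with WT Ngn3 (5.81, SE 0.35, adjusted p = 2.23e-07) and to 8.29 to 10.9 with 6S-A Ngn3 (6.07, SE 0.35, adjusted p = 8.85e-08). It was also the member of that list past the threshold at 8 days for both forms (7.54, adjusted p = 0.00856, and 7.10, adjusted p = 0.00793). This was 1 of 33 genes tested with each form (3.03%), beside 0.914% and 1.71% of all genes. Dact1, a Dishevelled-binding regulator, rose by 3.31 (SE 0.79, adjusted p = 0.0178) and 3.29 (SE 0.79, adjusted p = 0.0122). Ctnnb1, which encodes beta-catenin and was named after its values were seen, fell by 0.53 (SE 0.10, adjusted p = 0.00219) with WT Ngn3 and by 0.66 (SE 0.10, adjusted p = 0.000262) with 6S-A Ngn3 on the log2 scale.

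Of 17 genes of the beta-catenin-independent branch, 4 rose and 1 fell with WT Ngn3 and 5 rose and 2 fell with 6S-A Ngn3 at 2 days (29.4% and 41.2% called, beside 11.8% and 18.1% of all genes). The largest rises were those of Celsr3, a polarity cadherin also used in axon guidance (4.46 and 4.96), of the receptor Ror2 (3.48 and 4.36) and of Prickle2 (3.17 and 3.46). Celsr3 and Prickle2 passed again for 6S-A Ngn3 at 8 days (6.64 and 3.52), as 2 of 16 genes tested (12.5%, beside 1.71% of all genes). None of these 16 passed for WT Ngn3 at 8 days, where 0.914% of all genes did. Of 14 widely used Wnt target genes tested at 2 days, 4 rose and 3 fell with WT Ngn3 and 4 rose and 5 fell with 6S-A Ngn3, which is 50.0% and 64.3% called beside the same shares of all genes, in both directions (medians -0.18 and -0.11). Bambi, a decoy receptor of TGF-beta and BMP signals, rose most, by 4.06 (SE 0.56) and 4.60 (SE 0.57), and Ephb3 rose by 1.595 and 2.134. Tnfrsf19 (-1.87 and -2.69) and Olfm4 (-3.25 and -5.36) fell, Olfm4 close to the threshold with WT Ngn3 (adjusted p = 0.04965, edgeR). At 8 days 1 of 13 target genes tested passed for 6S-A Ngn3 (7.69%, beside 1.71% of all genes), namely Bambi, which was higher (2.20, SE 0.43, adjusted p = 0.0115). None of the 13 passed for WT Ngn3. Sox9 is on both the target list and the ductal marker list.

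Cell identity moved along with these genes. Of the 13 ductal markers, 6 fell and 1 rose with each form at 2 days (53.8% called with each, beside 11.8% and 18.1% of all genes). At 8 days 1 of 13 was lower with WT Ngn3 and 2 of 13 with 6S-A Ngn3 (7.69% and 15.4%, beside 0.914% and 1.71%), Krt19 with both forms (-1.67 and -1.98) and Muc1 with 6S-A Ngn3 (-1.53). The ductal sum was then 17350 to 38490 CPM in no-color cells, 15760 to 18100 with WT Ngn3 and 10830 to 26950 with 6S-A Ngn3. The summed level of 6 hormone genes was 0.4 to 0.886 CPM in GFP only, 58.1 to 203 with WT Ngn3 and 216.5 to 698 with 6S-A Ngn3, nearly all from Ghrl and Sst. Ins1, Ins2, Gcg and Ppy were at 0 in GFP only. At 8 days the hormone sum varied from 6.83 to 2963 CPM among WT Ngn3 replicates and from 35.5 to 3026 among those of 6S-A Ngn3. In pools of 50 cells, fewer cells of a type and less RNA per cell cannot be told apart, and the part of identity in the Wnt changes was not tested. Markers of other cell types stayed low in all 7 groups, with summed levels of at most 4.99 CPM over 9 mesenchymal, 10.8 over 5 endothelial, 21.3 over 5 leukocyte and 17.7 over 8 acinar genes. The endothelial sum was 0.951 to 1.58 CPM in GFP only, 1.75 to 6.27 with WT Ngn3 and 2.85 to 10.8 with 6S-A Ngn3, and Kdr was the endothelial gene with a mean over 1 CPM in these Ngn3 groups. Among the genes of these 4 lists, Pecam1 was higher with 6S-A Ngn3 at 2 days (log2 fold change 4.08, SE 1.12, adjusted p = 0.0197), Csf1r lower with both forms (-2.52 and -3.02, adjusted p = 0.00584 and 0.00129) and Cela1 lower with WT Ngn3 (-2.04, adjusted p = 0.0129). Cd3e, Cpa1 and Col3a1 were at 0 in every group and Cdh5 in those with 6S-A Ngn3 and all of 8 days. The part of these genes in the Wnt changes was not tested.

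The calls differed in how far they rested on single replicates. Wnt9a, Wnt7a, Rnf43 and Rspo4 passed at 2 days for both forms under every alternative run, as did Fzd7 for WT Ngn3 and Wnt7b and Dkk3 for 6S-A Ngn3. Wnt3 lost its call for both forms without any 1 of the GFP-only replicates (adjusted p = 0.0502 to 0.0873), without WT Ngn3 replicate 2 (0.0555, WT Ngn3) and without 6S-A Ngn3 replicate 3 (0.0598, 6S-A Ngn3). Wnt10a lost it without GFP-only replicates 2 or 3 or any 1 WT Ngn3 replicate (0.0562 to 0.119), and Wnt7b for WT Ngn3 without GFP-only replicate 1, WT Ngn3 replicate 2 or 3 (0.0512 to 0.0965). Znrf3 lost it without GFP-only replicate 3, WT Ngn3 replicate 1 or 2 (0.0516 to 0.0865), and Dkk3 for WT Ngn3 without any 1 WT Ngn3 replicate or 6S-A Ngn3 replicate 3 (0.0513 to 0.0766). Nkd1 for WT Ngn3 lost it without GFP-only replicate 3 (0.0508), and Wnt9b without GFP-only replicate 2 (0.0502, WT Ngn3) or 6S-A Ngn3 replicate 3 (0.0534, 6S-A Ngn3). For 6S-A Ngn3, Fzd1 lost it without any 1 GFP-only replicate, 6S-A Ngn3 replicate 1 or 3 or WT Ngn3 replicate 2 (0.0504 to 0.156), and Fzd6 without GFP-only replicate 2 or 6S-A Ngn3 replicate 1 (0.0604 and 0.0646). Ascl2 lost it without GFP-only replicate 2 or 3 or 6S-A Ngn3 replicate 1 or 2 (0.098 to 0.136), and Wif1 without GFP-only replicate 1 or 3 or 6S-A Ngn3 replicate 3 (0.0823 to 0.152). At 8 days, for 6S-A Ngn3, Rspo4 lost it without no-color (6S-A) replicate 1 or 3 or 6S-A Ngn3 replicate 3 (0.0509 to 0.0607). Wnt7a lost it there without any 1 of the 6S-A Ngn3 replicates, no-color (6S-A) replicate 1 or 2, no-color (WT) replicate 2 or WT Ngn3 replicate 2 (0.0517 to 0.113). In the first technical repeats alone, Fzd7, Fzd6, Ascl2, Wif1 and Wnt3 also missed the threshold for 6S-A Ngn3 (0.236 to 0.5999) and Wnt10a, Wnt3, Wnt9b and Znrf3 for WT Ngn3 (0.156 to 0.567). Without a filter on low counts Wnt3 (0.0924 and 0.0974) and Nkd1 (0.0915 and 0.0519) missed it for both forms and Dkk3 (0.0549) for WT Ngn3. Other genes passed in some of these fits alone. With DESeq2 these were Ascl2, Fzd9 and Lgr5 for WT Ngn3 and Fzd3, Fzd8 and Fzd9 for 6S-A Ngn3 at 2 days, Wnt4 and Lgr6 for WT Ngn3 and Nkd2, Tcf7l2 and Wif1 for 6S-A Ngn3 at 8 days. Without a filter on low counts they were Lgr5, Porcn and Wif1 for WT Ngn3 and Fzd3, Fzd5, Fzd8, Lgr4 and Znrf3 for 6S-A Ngn3 at 2 days, Lgr6, Nkd2, Rspo4 and Wif1 for WT Ngn3 and Nkd2 and Wif1 for 6S-A Ngn3 at 8 days. With 1 replicate left out at 2 days they were Ascl2, Lgr5, Lgr6, Porcn, Tcf7l2, Wnt4 and Wnt5a for WT Ngn3 and Fzd3, Fzd5, Fzd8, Lgr4, Tcf7l2, Wnt4, Wnt6 and Znrf3 for 6S-A Ngn3.

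Of the 61 genes, 30 are described above by the naming rule, and 20 of all 61 were detected in every kept library. The other 31 had highest group means between 0.0183 and 9.66 CPM and did not pass in the fit of all replicates. Of these, 7 passed in at least 1 other fit, namely Fzd8, Fzd9, Lgr6, Nkd2, Wnt4, Wnt5a and Wnt6. Of all 61 genes, 16 lay under 1 CPM in every group mean, among them Wnt9b, the ligands Wnt1, Wnt2, Wnt3a, Wnt8a, Wnt8b, Wnt10b and Wnt16 and the inhibitors Dkk1, Dkk2, Dkk4, Sfrp4 and Sfrp5.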

How the data were processed

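The members and gene lists were chosen with earlier results of these data known. Pools of 50 FACS-sorted cells were made into libraries by Smart-seq2, and the authors deposited raw read counts per gene, with technical repeats in separate columns. According to the methods and the submitters' processing notes, reads were aligned to mm10 with GSNAP and counted with HTSeq (0.5.3p3) on Ensembl 81. The strand setting of the counting is not given in the sources used here. If it did not use strand, 10 members whose exons overlap another gene on the other strand may carry its reads. Over all libraries 22.5% of reads were not aligned, 14.4% fell in no gene and 8.06% were ambiguous, and these rows were left out.

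Libraries were kept with over 1000000 gene reads, over 10000 genes detected and under 30% spike-in reads, limits taken from the study's methods. In the files used here 76 of 77 libraries met them and 1 was left out, a number that differs from the study's. Counts of technical repeats were summed per biological replicate (n = 3 in each of 7 groups). Nothing in the labels states whether replicates came from separate animals, so p-values measure the spread between these samples. Of 148 pairs of technical repeats, 6 differed much less than the others (chi-square per gene 1.59 to 2.35 against at least 5.21), so not all pools are separate. All were summed within 1 replicate.

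Genes detected in at least 5 kept libraries of a day were tested with edgeR 4.0.16 (R 4.3.3, TMM, robust quasi-likelihood fit, all groups of a day together). The 8-day control was the mean of both no-color groups. Adjusted p-values are Benjamini-Hochberg values over all genes tested, called under 0.05, and SE is the log2 fold change divided by the root of the F statistic. CPM used TMM-scaled library sizes within each day, and CPM per kb the exon length of GENCODE M21. Members were named when past the threshold in any comparison, at a group mean of at least 10 CPM, or as Wnt3 and Wnt9a, and at most 4 genes of each other pathway list by size of change. Alternatives were DESeq2 1.42.0, its size factors, other filters, the replicate block, single technical repeats, own no-color controls, passage 2 alone and each replicate left out. Scripts were tested on simulated data.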

Additional observations from a re-analysis of the deposited data

Results flagged for a closer look

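The WT Ngn3 library of 8 days that was left out for its depth (replicate 2, first repeat, 849278 gene reads) entered no comparison, and 11 members with over 3 reads in it stood above every no-color pool. Fzd9, Lgr6 and Lef1 also did, on 3, 2 and 2 reads. These are single values with no replicate and were not tested. Among the ligands Wnt9a stood at 63.6 CPM (54 reads) against at most 6.51 in a no-color pool, Wnt7b at 294 against 166, Wnt2b at 11.8 against 2.503 and Wnt5a at 10.6 against 7.73. Among the receptors Fzd6 stood at 90.7 CPM against 85.2, Fzd8 at 21.2 against 8.07, Lrp5 at 71.8 against 33.1 and Lrp6 at 160.1 against 128. Znrf3 stood at 162.5 CPM against 156, Axin1 at 80.1 against 68.4 and Axin2 at 127 against 58.8.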

How the results depend on the processing

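No member result reversed its direction under any alternative. Of 501 alternatives of the 32 member results past the threshold, 428 kept the call and 73 lost it, and 12 results kept it under all that were run. The counts of members past the threshold stayed within 1.5 times of those given above in 149 of 167 alternatives. For 6S-A Ngn3 against GFP only at 2 days the count of 16 became 25 with the replicate block (12 higher, 13 lower) and 8 from the first technical repeat alone, while calls over all genes went from 4305 to 5912 and 1677. For WT Ngn3 at 2 days the block gave 14 in place of 12 (over all genes 4291 in place of 2810), and Dkk3 and Nkd1 then missed the threshold (adjusted p = 0.0623 and 0.0511, edgeR). With the block Lgr5, Lgr4, Fzd3 and Wnt4 passed for WT Ngn3 and Znrf3, Axin1, Lgr4, Fzd3, Fzd5, Fzd8, Fzd9, Wnt4 and Wnt6 for 6S-A Ngn3 as well. For 6S-A against WT Ngn3 at 2 days the count of 0 became 1 without a filter (Wnt7a), 1 from the first technical repeat alone (Fzd1), and 0 to 1 with each replicate left out. Calls over all genes went from 3 to 100 without a filter and to 63 from the first technical repeat alone. For WT Ngn3 at 8 days the count of 1 became 3 with the block (Lgr6, Rspo4, Wnt9a), 3 with DESeq2, 5 without a filter, 2 in passage 2 alone and 1 to 2 with each replicate left out, 2 without no-color (WT) replicate 3, while calls over all genes went from 180 to 472, 545, 724 and 151 in the first 4 of these. For 6S-A Ngn3 at 8 days the count of 3 became 5 with the block (also Nkd2 and Rnf43), 6 with DESeq2, 5 without a filter, 0 against its own no-color group and 1 to 3 with each replicate left out, 1 without no-color (6S-A) replicate 1, while calls over all genes went from 337 to 704, 822, 1044 and 115 in the first 4. For the change of the WT Ngn3 effect between days, 0 became 1 with the block (Wnt7a), 2 with DESeq2 and 2 without a filter (Wnt7a and Lgr6 in each). Calls over all genes went from 0 to 15, 59 and 87 in these fits. The cause of these differences was not tested, except that the own no-color fit and each fit without a replicate rest on fewer control or Ngn3 samples.

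Replicate numbers are shared by the groups, and the labels do not say that a number marks a shared culture, although at 8 days replicate 3 of every group was of passage 5 and the others of passage 2, so that there the number is in part a passage. The correlation of same-numbered deviations was 0.0436 to 0.184 at 2 days (6 of 9 pairs over 0.1) and 0.069 to 0.478 at 8 days (15 of 18), and every sample correlated best with its own number in another group (9 of 9 and 12 of 12). Beyond the passage at 8 days this is a hint from the data and not from the design. Low depth limits the 8-day values most, where 1 read was worth 0.554 CPM in the shallowest replicate (Nkd1 there). The fit from the first technical repeats alone gave no value for Wnt9b with 6S-A Ngn3, which then had no reads in either group.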

Other observations

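Lgr6, an R-spondin receptor of skin and other epithelia that was chosen after its values were seen, had opposite signs on the 2 days, passing the threshold in some fits and not in others. At 2 days it held 2.04, 1.14 and 2.20 CPM in GFP only, 0.0848, 1.23 and 0.265 with WT Ngn3 and 0.440, 0.713 and 1.99 with 6S-A Ngn3, groups that overlapped. At 8 days it held 0 to 0.105 CPM in the 6 no-color replicates and 3.79, 2.13 and 0.190 with WT Ngn3. The last of these values and the highest control were 1 read each, so that replicate cannot be told apart from the controls. Reads were found in 3 of 4 WT Ngn3 pools and 2 of 6 of 6S-A Ngn3 at that day, against 1 of 6 no-color pools from each kind of organoid. Of the 50 reads of WT Ngn3, 84.0% came from 1 pool, and the lowest replicate held 1 read. Lgr6 reached the required 5 libraries at 8 days through the Ngn3 groups. The log2 fold change for WT Ngn3 was -1.79 (SE 0.79, adjusted p = 0.190) at 2 days and 5.56 (SE 1.51, adjusted p = 0.107) at 8 days, and the difference between the days was 7.48 (SE 1.81, adjusted p = 0.421), none past the threshold. At 8 days the change passed with DESeq2, with the replicate block and without a filter on low counts, and the difference between the days with DESeq2 and without that filter. The change at 2 days passed without WT Ngn3 replicate 2.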
